A study of Homo sapiens with 16 samples.

Results

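The genes that build autophagosomes and the receptors that bring cargo to them were followed in RNA-seq of 2 human colorectal cancer cell lines, HT55 and SW948. The list held 36 genes named by symbol: 5 of the initiation complex, 6 of the lipid kinase complex, 6 of membrane expansion, 10 of the conjugation machinery, 4 of the ATG8 family and 5 cargo receptors. Lysosome genes were left out. All 36 matched an Ensembl ID among the 54127 in the files, and all 36 had 10 or more counts in all 4 libraries of at least 1 group. Each line was cultured as an adherent layer with serum and antibiotics and received itraconazole at 5 µM or the solvent DMSO alone, and RNA was taken on day 6. Itraconazole is an antifungal drug that also blocks Hedgehog signalling. There were thus 2 groups a line, treated and control, with 4 libraries in each of the 4. No genotype was altered and no other agent was named. The labels do not say whether the 4 replicates of a group were separate cultures. The paper states that its experiments were done in biological quadruplicate, without saying how these replicates were kept apart. The p-values measure the spread between these libraries, part of which may be technical.

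Autophagy encloses cytoplasm in a double membrane, the autophagosome, which fuses with lysosomes. The ULK kinase complex starts the process, and a lipid kinase complex around PIK3C3 then marks the membrane with phosphatidylinositol 3-phosphate. WIPI proteins read that lipid, and ATG2 and ATG9 proteins bring in lipid. A pair of ubiquitin-like conjugation systems, with ATG7 as their shared activating enzyme, attaches proteins of the ATG8 family (the LC3 and GABARAP proteins) to the growing membrane. Receptors such as SQSTM1 (p62) bind both ubiquitin-tagged cargo and ATG8 proteins. RNA-seq measures the transcripts of these genes and not the lipidated proteins or the flux of cargo to lysosomes.

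Gene counts per library ran from 8269406 to 11110814. Levels are given below as CPM, the count per 1000000 gene counts, scaled by the trimmed mean of M-values (TMM), as mean ± SD with n = 4. Replicate 3 of HT55 with itraconazole stood apart from its group: its chi-square per gene against the other treated HT55 libraries was 12.3 to 40.4, beside 4.88 to 15.7 among those. In treated SW948 the range over pairs was 3.76 to 21.5, and in the control groups 1.43 to 4.85. All 8 epithelial markers were at 1 CPM or more in every group, with summed levels from 5732 to 10454 CPM. Of 8 markers of blood, stromal and endothelial cells, CD3E was at 0 in all 4 groups, PTPRC had 1 count over all 16 libraries and 2 were at 1 CPM or more in each group. Beside CD68 these were PDGFRB in HT55 (1.04 CPM with DMSO, 2.49 with itraconazole) and COL1A1 in SW948 (3.16 and 10.1). CD68, a lysosomal protein named as a macrophage marker, made up most of the sum of the 8 and averaged 30.4 CPM in HT55 with DMSO, 46.1 with itraconazole, 20.5 in SW948 with DMSO and 110.3 with itraconazole. Its part in the results below was not tested.

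With itraconazole, members of every role group changed in both lines. GABARAPL1, an ATG8 protein, and the receptors SQSTM1 and OPTN rose in both, and the conjugation enzymes ATG10 and ATG7 fell in both. The HT55 call of ATG10 did not hold in every fit that left out 1 library. In HT55, 24 of 36 genes (66.7%) changed at an adjusted p under 0.05, where 54.0% of the 12133 genes tested did. Of these, 18 rose (50.0%) beside 27.5% of all genes, and 6 fell (16.7%) beside 26.5% of all genes. In SW948, 30 of 36 (83.3%) changed beside 80.2% of 12505 genes: 20 rose (55.6%) beside 38.9%, and 10 fell (27.8%) beside 41.3%. The share that changed in SW948 was thus near that of all genes, while risen members outnumbered fallen ones in both lines. The median log2 fold change over the members was 0.20 in HT55 and 0.36 in SW948, and over all genes tested -0.02 in both. The higher share of changed members in HT55 held with TMM but not when counts were scaled by plain gene totals. On that scale 17 of 36 (47.2%) changed in HT55, beside 6989 of the 12133 genes. In such bulk samples fewer cells with a transcript and less of it per cell cannot be told apart.

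**Figure D1:**
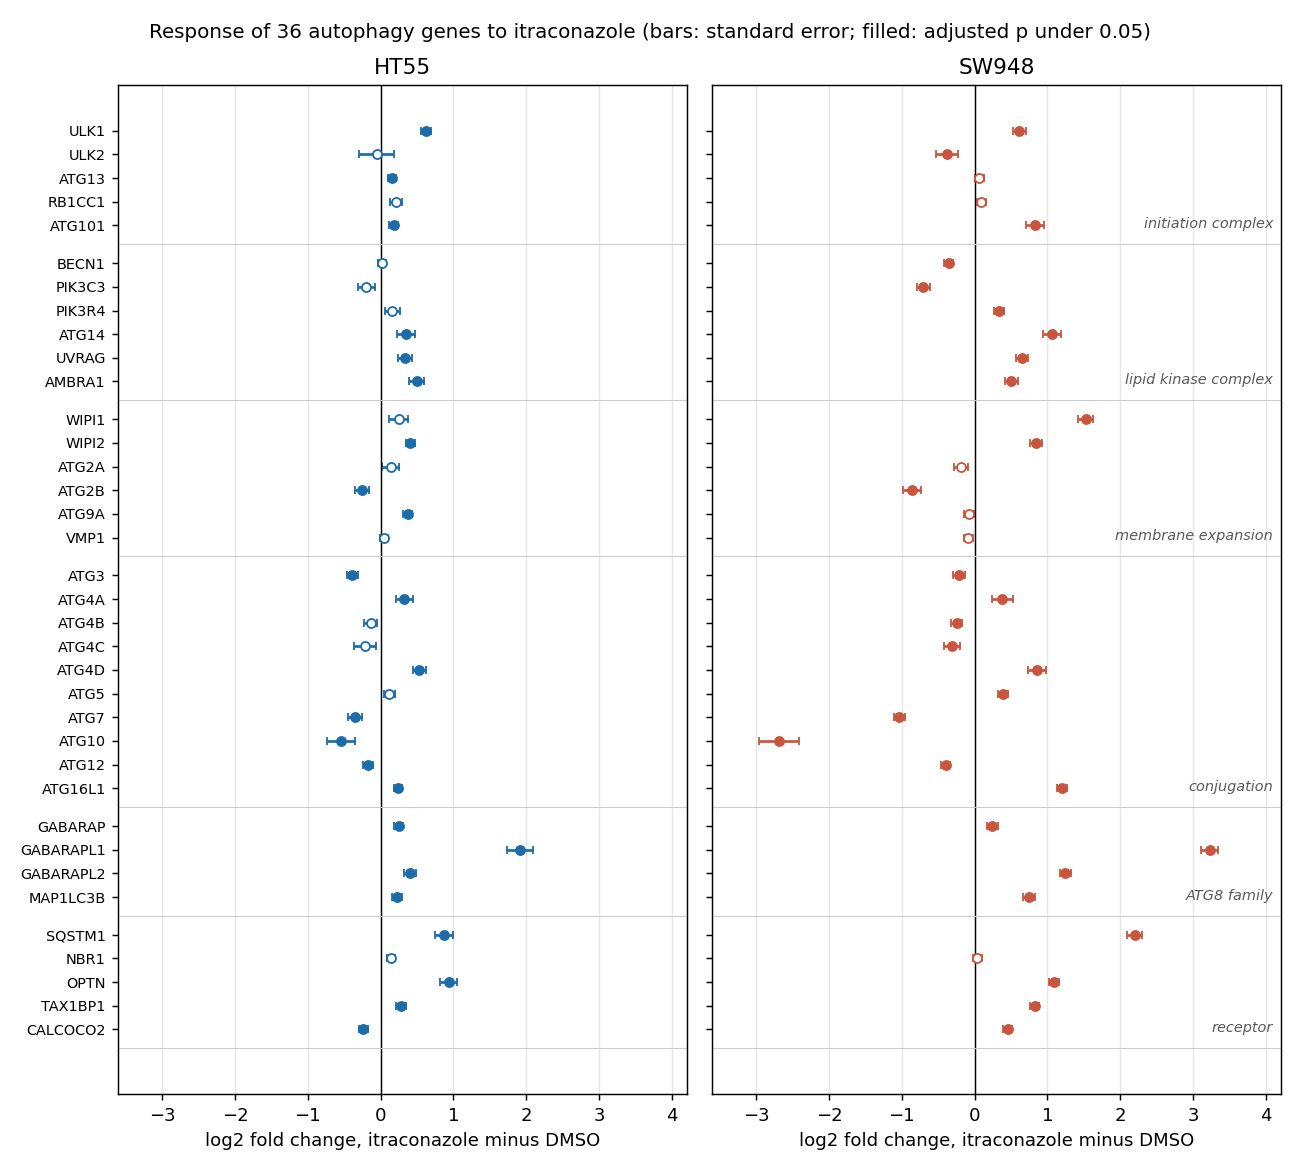
Log2 fold change of each of the 36 genes (horizontal axis, itraconazole minus DMSO, TMM scaling) with its standard error, by role from the initiation complex at the top to the receptors at the bottom, for HT55 on the left and SW948 on the right. Filled points passed an adjusted p under 0.05 (edgeR); GABARAPL1 lies farthest to the right in both lines at 1.91 and 3.23, and ATG10 farthest to the left at -0.55 and -2.68.

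The split between risen and fallen genes depended on the scaling. TMM factors were lower in treated than in control libraries, so scaling by plain gene counts lowered the fold changes of all 36 genes. The median of all genes tested was lowered by 0.16 in HT55 and by 0.33 in SW948 on the log2 scale. With plain totals, 9 members rose and 8 fell in HT55, beside 18.8% and 38.8% of all genes, and 14 rose and 16 fell in SW948, beside 25.2% and 54.6%. The members' median then stood at 0.03 in both lines, and that of all genes at -0.18 in HT55 and -0.35 in SW948. The members' median therefore lay above that of all genes under both scalings. In HT55, 12 members kept their call (adjusted p under 0.05) and direction under plain totals and 14 other ways of fitting the counts: ULK1, AMBRA1, WIPI2, ATG9A, ATG4D, GABARAPL1, GABARAPL2, SQSTM1 and OPTN up, and ATG3, ATG7 and CALCOCO2 down. At a threshold of 0.01 in place of 0.05, ATG7 (adjusted p = 0.0123) lost its call and 11 remained. In SW948, 21 kept theirs in every such fit in which they were tested, 14 up and 7 down, and ATG4B (adjusted p = 0.0116) lost its call at 0.01, which left 20. How many of all genes tested kept their calls in this way was not counted, so these counts have no background beside them. Leaving out 1 library ended the HT55 calls of ATG13, ATG101, ATG14, ATG2B, ATG4A, ATG10 and ATG12 in at least 1 fit each, and the SW948 calls of ULK2, ATG3, ATG4A and ATG4C.

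**Figure D2:**
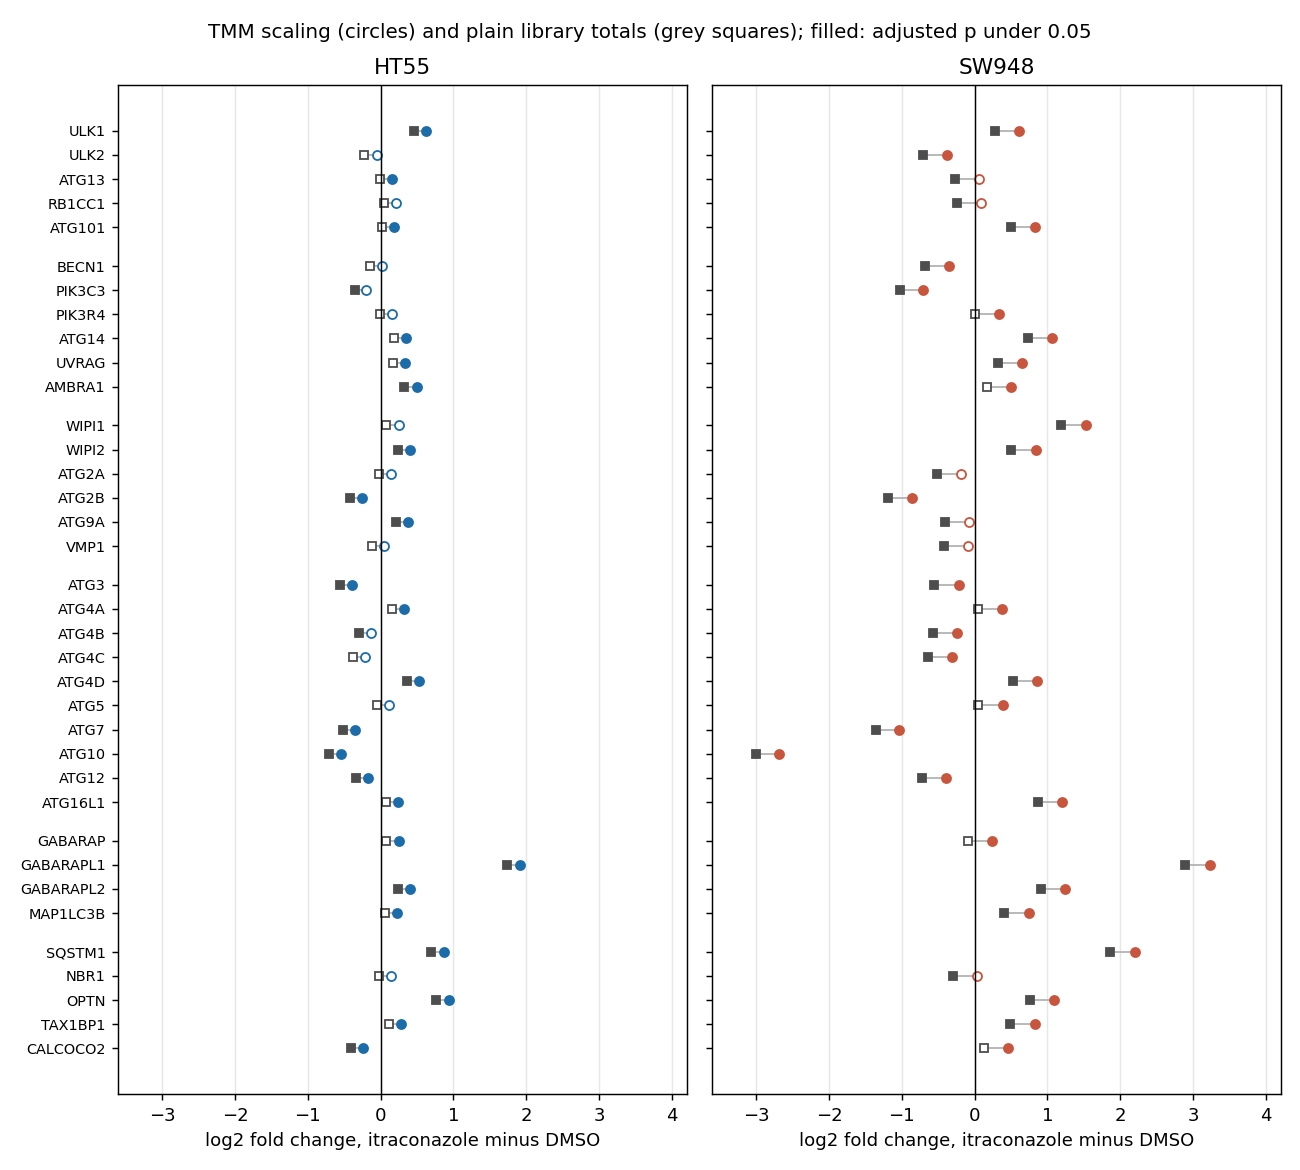
Log2 fold change of each gene (horizontal axis, itraconazole minus DMSO) under TMM scaling (coloured circles) and plain library totals (grey squares), HT55 left and SW948 right, filled where the adjusted p was under 0.05. Every square lies to the left of its circle; the move takes GABARAP in SW948 from 0.24 to -0.09, and GABARAPL1 there from 3.23 to 2.89.

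The promoters of 4 members are shown because they had the largest rises in SW948 (GABARAPL1, SQSTM1), the largest fall there (ATG10) or, in ATG14, an E-box. ATG3, the other member with an E-box, fell in both lines and is not shown. Sequences are from RefSeq on GRCh38.p14, 5′ to 3′ on the strand of the gene, and cover at most the 250 bases before the start, shortened to the stretch that no annotated exon covers. They lie at chr12:10212754-10212835 (plus) for GABARAPL1, chr5:179820707-179820877 (plus, the last of 3 listed starts) for SQSTM1, chr5:81971773-81972022 (plus) for ATG10 and chr14:55411831-55412080 (minus) for ATG14. Capitals mark GC boxes (GGGCGG or its reverse complement CCGCCC) in the first 3, and in ATG14 the E-box CACGTG with the A that extends it to CACGTGA.
GABARAPL1: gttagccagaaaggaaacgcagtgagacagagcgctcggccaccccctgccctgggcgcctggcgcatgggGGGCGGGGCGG
SQSTM1: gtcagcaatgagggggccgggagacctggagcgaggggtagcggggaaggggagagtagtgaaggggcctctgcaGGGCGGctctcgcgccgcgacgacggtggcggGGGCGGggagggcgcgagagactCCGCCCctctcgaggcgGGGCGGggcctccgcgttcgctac
ATG10: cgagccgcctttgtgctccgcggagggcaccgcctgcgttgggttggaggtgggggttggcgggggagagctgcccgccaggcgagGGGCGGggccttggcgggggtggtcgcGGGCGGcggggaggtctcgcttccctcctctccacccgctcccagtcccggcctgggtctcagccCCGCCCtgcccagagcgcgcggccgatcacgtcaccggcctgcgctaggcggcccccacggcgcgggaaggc
ATG14: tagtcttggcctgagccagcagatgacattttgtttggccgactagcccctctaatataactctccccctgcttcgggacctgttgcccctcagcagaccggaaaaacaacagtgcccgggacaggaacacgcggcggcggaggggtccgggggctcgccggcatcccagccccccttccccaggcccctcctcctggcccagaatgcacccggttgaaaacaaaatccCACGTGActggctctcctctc

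Promoter windows from 250 bases before to 50 after the start were found for 33 of the 36 genes, in 41 windows, and not for RB1CC1, UVRAG and ATG4D. Both strands were searched. The E-box CACGTG, the letters bound by TFEB, TFE3 and other factors, was in 2 of the 41 (4.88%), those of ATG14 at -21 and of ATG3 at -18 and 6, and in 7.2% of 34796 promoters of the same length. The extended form TCACGTG, which contains the E-box, was in the same 2 and in 3.67% of all. The forkhead letters GTAAACA were in CALCOCO2 at -226 only (2.44% of windows, 3.42% of all), and the antioxidant element core TGACNNNGC in ATG101, MAP1LC3B and CALCOCO2 (7.32% beside 13.3%). TGACGTCA, the cyclic AMP response element, which was added after the GABARAPL1 window had been read, was in GABARAPL1 at -30 alone (2.44% beside 1.84%). GC boxes were in 27 of 41 windows (65.9%) and in 44.9% of all promoters. GABARAPL1, SQSTM1 and ATG10 each hold at least 1.

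In the initiation complex, ULK1, the kinase that starts autophagy and is held in check by mTORC1, rose in both lines. It was at 57.4, 54.4, 58.2 and 51.9 CPM in HT55 with DMSO and at 84.6, 85.5, 81.7 and 91.0 CPM with itraconazole (log2 fold change 0.62 ± 0.07, SE, adjusted p = 4.25e-05). ULK1 in SW948 was at 40.3, 36.8, 43.8 and 37.1 CPM with DMSO and at 57.7, 67.3, 69.5 and 53.4 CPM with itraconazole (0.61 ± 0.09, adjusted p = 3.31e-05). With TMM no treated library overlapped the controls in either line, and the line difference of 0.02 ± 0.12 was not called (adjusted p = 0.895). With plain totals ULK1 rose by 0.46 in HT55 and by 0.28 in SW948 (adjusted p = 0.0103), where the groups then overlapped. Its paralog ULK2 averaged 4.62 to 7.29 CPM over the 4 groups and was called in SW948 alone, where it fell by 0.38 ± 0.15 (adjusted p = 0.0324), a call lost in 5 of the 8 fits that left out 1 library (without control replicates 1, 3 or 4 or treated replicates 3 or 4), with adjusted p up to 0.0899. ATG101, which stabilises ATG13, rose in both lines, more in SW948 (0.83 ± 0.12) than in HT55 (0.18 ± 0.06), with a difference of 0.68 ± 0.15 (adjusted p = 0.000782). ATG13 was called in HT55 alone, where it rose by 0.16 (adjusted p = 0.0344, beside 0.06 in SW948), and RB1CC1 (FIP200), the scaffold of the complex, was called in neither line, at 0.21 and 0.09. With plain totals the rises of ATG13 and ATG101 in HT55 were not called, and ATG13 and RB1CC1 fell in SW948 by 0.27 and 0.24.

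The lipid kinase complex split by subunit in SW948. ATG14 and UVRAG, which give the complex its autophagy and its endosome form, rose there by 1.06 ± 0.13 (adjusted p = 2.77e-06) and 0.66 ± 0.08 (adjusted p = 5.28e-06), and the regulators AMBRA1 and PIK3R4 rose by 0.51 and 0.34. The catalytic subunit PIK3C3 (VPS34) fell by 0.70 ± 0.09 (adjusted p = 6.43e-06) and BECN1 (Beclin 1) by 0.36 ± 0.06 (adjusted p = 9.42e-05). In HT55 the same regulators ATG14, UVRAG and AMBRA1 rose by 0.35, 0.33 and 0.49, while PIK3C3 (-0.19), BECN1 (0.02) and PIK3R4 (0.16) were not called. The line difference was called for ATG14 (0.75), UVRAG (0.35), PIK3C3 (-0.48) and BECN1 (-0.34). With plain totals AMBRA1 alone of the risen subunits was still called in HT55, where PIK3C3 then fell by 0.36, and ATG14 and UVRAG were still called in SW948.

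Of the genes of membrane expansion, WIPI1 and WIPI2, which bind the lipid made by PIK3C3, had the highest fold changes in SW948. WIPI1 was at 29.1, 32.0, 34.0 and 35.1 CPM in HT55 with DMSO and at 39.9, 46.3, 28.8 and 40.3 CPM with itraconazole, where the treated libraries overlapped the controls (0.25 ± 0.13, adjusted p = 0.135). Treated replicate 3 was the lowest of all 8 libraries and the others lay above the controls. Without it the fold change of WIPI1 in HT55 was 0.38 (adjusted p = 0.00178). In SW948 it was at 35.6, 29.1, 25.7 and 33.3 CPM with DMSO and at 79.5, 95.2, 97.2 and 93.1 CPM with itraconazole (1.52 ± 0.10, adjusted p = 8.88e-09), and the line difference of 1.31 ± 0.17 was called (adjusted p = 4.8e-06). WIPI2 rose in both lines, by 0.41 ± 0.06 in HT55 and 0.84 ± 0.08 in SW948. The lipid transfer protein ATG2B fell in both, by 0.26 ± 0.10 in HT55 and 0.86 ± 0.12 in SW948, whereas its paralog ATG2A was called in neither, at 0.14 and -0.19. The HT55 call of ATG2B was kept in 2 of 8 fits that left out 1 library. ATG9A, the lipid scramblase of the seed vesicles, rose in HT55 by 0.37 ± 0.06 and was not called in SW948 at -0.07, a difference of -0.42 ± 0.09 (adjusted p = 0.000721). VMP1, a scramblase of the endoplasmic reticulum, was called in neither line, at 0.05 and -0.09. With plain totals ATG2A, ATG9A and VMP1 fell in SW948, by 0.52, 0.40 and 0.41.

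Of the 10 genes of the conjugation machinery, 4 fell in HT55 (40%, beside 26.5% of all genes) and 3 rose (30%, beside 27.5%). In SW948 6 fell (60%, beside 41.3%) and 4 rose (40%, beside 38.9%). With plain totals 5 fell in HT55 (50%, beside 38.8%) and 1 rose (10%, beside 18.8%). In SW948 6 then fell (60%, beside 54.6%) and 2 rose (20%, beside 25.2%). ATG7, the activating enzyme of both conjugation systems, fell by 0.35 ± 0.10 in HT55 (adjusted p = 0.0123) and by 1.03 ± 0.08 in SW948 (adjusted p = 3.28e-08). ATG10, the enzyme that passes ATG12 to ATG5, was at 7.25, 7.51, 7.10 and 8.41 CPM in HT55 with DMSO and at 5.69, 5.19, 6.37 and 3.35 CPM with itraconazole (-0.55 ± 0.19, adjusted p = 0.03). That call was lost without any single one of the 4 control libraries or without treated replicate 4, with adjusted p up to 0.0878. In SW948 ATG10 was at 5.77, 6.43, 8.15 and 6.78 CPM with DMSO and at 1.501, 0.644, 0.381 and 1.58 CPM with itraconazole, from 72, 68, 94 and 88 counts and from 15, 5, 3 and 14 counts. It fell 6.43-fold there (-2.68 ± 0.28, adjusted p = 6.07e-07) with no overlap, and 97.1% of all genes tested had a higher log2 fold change. The line difference for ATG10 was -2.12 ± 0.36 (adjusted p = 6.77e-05), and its control levels were not called different (adjusted p = 0.49). Its transcript shares 5.13% of 50-base windows with other places in the genome.

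The remaining conjugation genes moved in both directions. ATG12, the ubiquitin-like protein of this system, fell by 0.18 in HT55, a call kept in 2 of 8 fits that left out 1 library, and by 0.40 in SW948. ATG3, the enzyme that joins ATG8 proteins to lipid, fell by 0.39 in HT55 and by 0.22 in SW948, where the call was kept in 4 of 8 such fits. Their partners rose: ATG16L1, which directs the ATG12-ATG5 pair to the membrane, by 0.24 ± 0.06 in HT55 (adjusted p = 0.00602) and by 1.20 ± 0.06 in SW948 (adjusted p = 8.5e-10), and ATG5 by 0.39 in SW948 alone (0.12 in HT55, adjusted p = 0.184). ATG16L1 stood at 45.8, 44.2, 45.5 and 43.9 CPM in SW948 with DMSO and 101, 112, 103 and 106 CPM with itraconazole, values shown after they were seen because this was the smallest adjusted p among the conjugation genes. Of the ATG4 proteases, which trim ATG8 proteins and release them from lipid, ATG4D rose in both lines (0.53 and 0.86) and ATG4A did too (0.32 and 0.38), whereas ATG4B and ATG4C fell in SW948 by 0.25 and 0.31 and were not called in HT55 at -0.14 and -0.22. Under plain totals ATG4A and ATG5 were called in neither line, and ATG4B fell in HT55 as well. ATG16L1 was then not called in HT55, at 0.07 (adjusted p = 0.287), and still rose in SW948 by 0.87.

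Among the ATG8 family, GABARAPL1 (chr12:10365057-10375727 on the plus strand of GRCh37), the member with the strongest response, rose 3.76-fold in HT55 and 9.38-fold in SW948. ATG8 proteins coat the inner and outer autophagosome membrane and bind the receptors. In HT55, GABARAPL1 was at 24.3, 25.3, 22.7 and 22.2 CPM with DMSO and at 83.9, 118, 59.8 and 96.0 CPM with itraconazole. The treated libraries did not overlap the controls, and treated replicate 3 was the lowest of them. In SW948 it was at 15.5, 17.1, 14.5 and 16.01 CPM with DMSO and at 116, 168, 165 and 158 CPM with itraconazole, again without overlap. The log2 fold changes were 1.91 ± 0.18 (SE, adjusted p = 2.06e-05, edgeR) and 3.23 ± 0.12 (adjusted p = 5.34e-11). Only 1.34% of all genes tested in HT55 and 0.888% in SW948 had a higher log2 fold change. The response was larger in SW948 by 1.35 ± 0.22 on the log2 scale (adjusted p = 5.17e-05, interaction in the 16-library fit). With DMSO, SW948 was below HT55 at a log2 difference of -0.58 (adjusted p = 0.00437), and with itraconazole the means were 152 ± 24.3 CPM in SW948 and 89.4 ± 24.2 CPM in HT55.

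The other 3 family members rose less, with TMM scaling. GABARAPL2 was at 36.3, 44.3, 43.997 and 39.6 CPM in HT55 with DMSO and at 54.0, 56.7, 52.1 and 54.9 CPM with itraconazole (log2 fold change 0.40 ± 0.08, adjusted p = 0.00192). GABARAPL2 in SW948 was at 36.4, 36.1, 39.99 and 33.5 CPM with DMSO and at 82.0, 98.7, 88.3 and 85.5 CPM with itraconazole (1.25 ± 0.08, adjusted p = 4.63e-09). All treated libraries of GABARAPL2 lay above their controls, and the response was larger in SW948 by 0.87 ± 0.11 (adjusted p = 3.66e-06). MAP1LC3B, which encodes the LC3 protein most used as an autophagosome marker, was at 78.9, 77.8, 79.0 and 88.9 CPM in HT55 with DMSO and at 90.8, 93.1, 94.9 and 101 CPM with itraconazole (0.22 ± 0.07, adjusted p = 0.0151). MAP1LC3B in SW948 was at 100.3, 114, 101 and 112 CPM with DMSO and at 160.0, 203, 198 and 170.0 CPM with itraconazole (0.74 ± 0.08, adjusted p = 1.74e-06). The gap in HT55 was narrow, 88.9 against 90.8 CPM, and with plain totals MAP1LC3B was not called there at 0.06. MAP1LC3B also shares 9.05% of its 50-base exon windows with other places in the genome, the largest share of the 36 genes, and reads from such windows were not counted as unique.

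GABARAP had the smallest fold change of the family in SW948. It was at 82.4, 84.1, 80.6 and 85.8 CPM in HT55 with DMSO and at 98.6, 103, 93.4 and 101 CPM with itraconazole (0.25 ± 0.06, adjusted p = 0.00444). In SW948 it was at 145, 141, 146 and 155 CPM with DMSO and at 154, 189.6, 189 and 179.5 CPM with itraconazole (0.24 ± 0.07, adjusted p = 0.00718), where 1 treated library lay within the control range. With plain totals GABARAP stood at 0.08 in HT55 and -0.09 in SW948 and was called in neither. The line difference of 0.03 ± 0.10 for GABARAP was not called (adjusted p = 0.832), whereas those of GABARAPL1, GABARAPL2 and MAP1LC3B were.

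Per transcript length the make-up of the 4 listed family members shifted towards GABARAPL1. With each count divided by the length of the main transcript, GABARAPL1 made up 8.07 ± 0.579% of the sum of these 4 in HT55 with DMSO and 21.1 ± 4.13% with itraconazole, and 4.05 ± 0.282% and 20.5 ± 1.54% in SW948. GABARAP remained the most abundant of the 4 per length in all groups, but its share went from 40.6 ± 1.05% to 33.8 ± 1.38% in HT55 and from 53.8 ± 1.45% to 34.5 ± 0.678% in SW948. These shares do not depend on the library scaling and are given without a test. Of the family members outside the list, MAP1LC3A, named here after its values were seen, had 173 to 223 counts per library in HT55 with DMSO and 152 to 238 with itraconazole, but 0 to 5 in the SW948 libraries, too few to be tested there. The shares above leave it out, so they are not shares of the whole family in HT55.

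**Figure D3:**
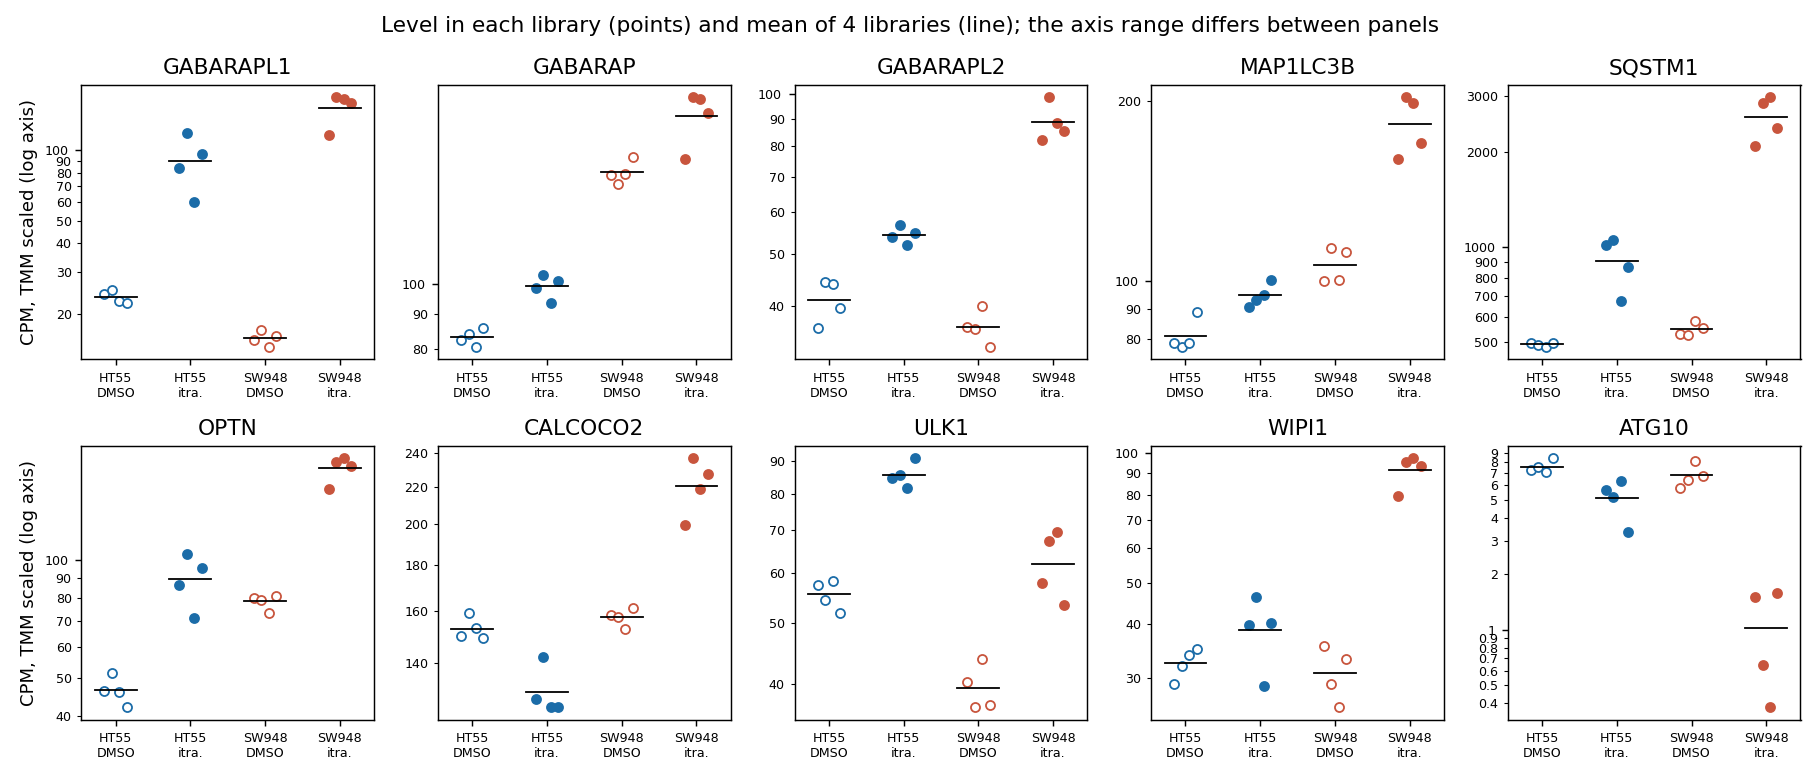
Level of 10 genes in each of the 16 libraries (vertical axis, CPM with TMM scaling on a log axis whose range differs between panels), open points for DMSO and filled points for itraconazole, with the mean of each group as a line. GABARAPL1, SQSTM1, OPTN, ULK1 and GABARAPL2 lie above their controls in all treated libraries of both lines, ATG10 lies below, and CALCOCO2 lies below in HT55 and above in SW948.

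Among the receptors, SQSTM1 (chr5:179233398-179265078, plus strand, GRCh37), which gathers ubiquitin-tagged proteins into bodies for autophagy, had the highest fold change in SW948, and in HT55 it came after OPTN. In HT55 it was at 498, 491, 485 and 496 CPM with DMSO and at 1013, 1056, 676 and 865 CPM with itraconazole. The controls lay close together, and treated replicate 3 was again the lowest treated library. In SW948 it was at 533, 526, 583 and 555 CPM with DMSO and at 2092, 2859, 2979 and 2379 CPM with itraconazole. SQSTM1 thus rose 1.83-fold in HT55 (log2 fold change 0.87 ± 0.12, adjusted p = 0.000211) and 4.59-fold in SW948 (2.20 ± 0.11, adjusted p = 4.26e-10), with a line difference of 1.36 ± 0.17 (adjusted p = 2.08e-06). The control levels, 492 ± 5.92 and 549 ± 25.9 CPM, were not called different (adjusted p = 0.235), though with plain totals they were. SQSTM1 counts were 18.5% of all counts in the 36 genes in HT55 with DMSO and 26.1% with itraconazole, and 18.0% and 42.4% in SW948. The 36 genes together took 0.273 ± 0.00209% of gene counts in HT55 with DMSO and 0.312 ± 0.01% with itraconazole, and 0.359 ± 0.00454% and 0.551 ± 0.0314% in SW948.

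OPTN, a receptor for damaged mitochondria and bacteria, rose in both lines. It was at 46.3, 51.5, 45.9 and 42.1 CPM in HT55 with DMSO and at 86.1, 104, 71.3 and 95.5 CPM with itraconazole (0.93 ± 0.11, adjusted p = 9.68e-05). OPTN in SW948 was at 80.2, 79.2, 73.2 and 81.1 CPM with DMSO and at 152, 178, 182 and 174 CPM with itraconazole (1.09 ± 0.07, adjusted p = 6.66e-09). The groups did not overlap in either line, and the line difference of 0.19 ± 0.14 was not called (adjusted p = 0.252). TAX1BP1, which brings aggregates and ferritin to autophagosomes, rose by 0.28 ± 0.07 in HT55 (adjusted p = 0.00451; not called with plain totals, at 0.11) and by 0.82 ± 0.07 in SW948 (adjusted p = 4.88e-08). NBR1, a receptor related to SQSTM1, was called in neither line, at 0.14 (adjusted p = 0.0569) and 0.04 (adjusted p = 0.537), and with plain totals it fell in SW948 by 0.29.

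CALCOCO2 (NDP52), a receptor for bacteria and mitochondria, was the 1 member called in opposite directions. In HT55 it was at 149.9, 159, 153 and 149 CPM with DMSO and at 128, 142, 125 and 125 CPM with itraconazole (-0.24 ± 0.06, adjusted p = 0.00817). CALCOCO2 in SW948 was at 158, 158, 153 and 161 CPM with DMSO and at 199.8, 237, 219 and 228 CPM with itraconazole (0.46 ± 0.06, adjusted p = 1.6e-05). The groups did not overlap in either line, and the line difference was 0.72 ± 0.09 (adjusted p = 2.19e-06). With plain totals the fall in HT55 stood at -0.41, while the rise in SW948 was 0.12 and no longer called.

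Taking the lines side by side, 16 members rose in both, which is 16 of 18 risen in HT55 and 16 of 20 risen in SW948, and 5 fell in both, of 6 in HT55 and 10 in SW948. These are 44.4% and 13.9% of the 36, where 19.9% of the 11448 genes tested in both lines rose in both and 19.5% fell in both. Of the 5 that fell, ATG7 alone kept both calls in every fit that left out 1 library. In HT55 ATG2B and ATG12 kept theirs in 2 of 8 such fits each and ATG10 in 3. In SW948 ATG3 kept its call in 4 of 8. Of the 16 that rose, ATG101, ATG14 and ATG4A lost a call in some of these fits. With plain totals 7 members rose in both and 7 fell in both (19.4% each), beside 11.7% and 31.0% of all genes. The response itself differed between the lines for 19 of 36 members (52.8%), where 53.9% of 13249 genes did, a share near the background. It was more positive in SW948 for 13 members (36.1%, beside 24.8% of all genes) and more negative for 6 (16.7%, beside 29.1%). With plain totals it was called for 23 members (63.9%, beside 54.5%), 11 more positive (beside 17.3%) and 12 more negative (beside 37.2%). With TMM the largest were ATG10 (-2.12), SQSTM1 (1.36), GABARAPL1 (1.35), WIPI1 (1.31), ATG16L1 (0.99) and GABARAPL2 (0.87). In 17 of the 19 the call held in all 22 other fits in which the gene was tested and at a threshold of 0.01, the exceptions being UVRAG and ATG5. The same was not counted over all genes.

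**Figure D4:**
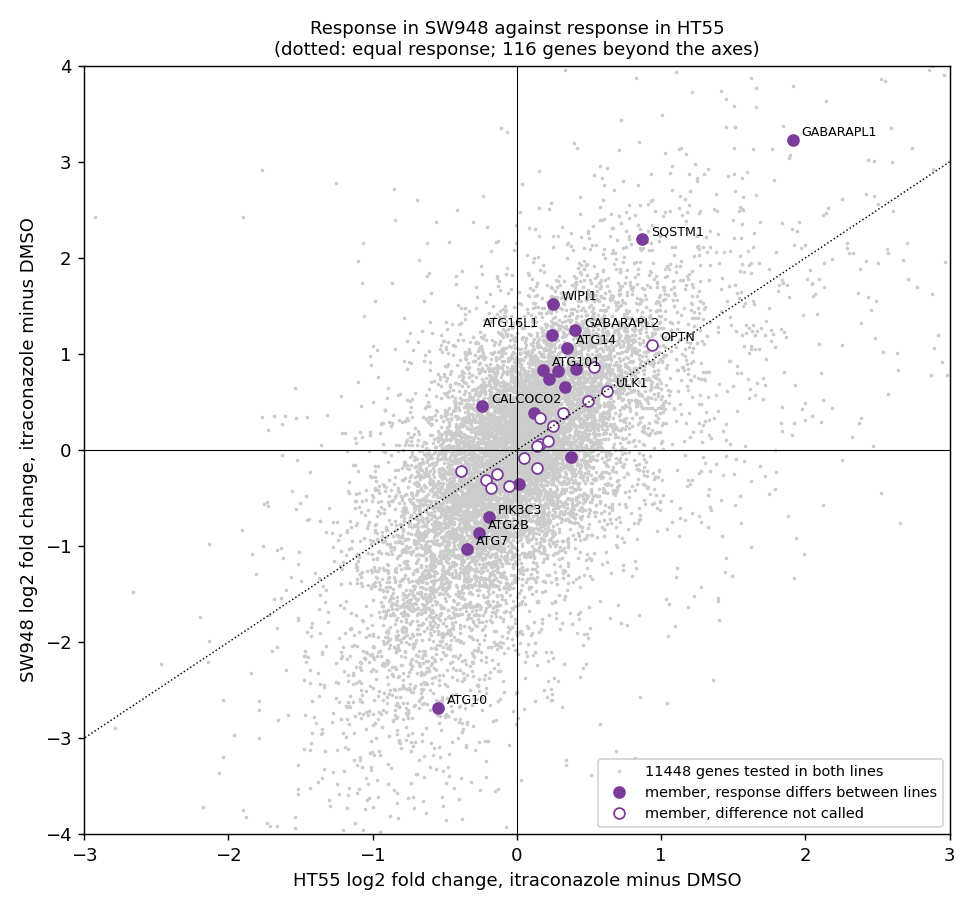
Log2 fold change in SW948 (vertical axis) against that in HT55 (horizontal axis), itraconazole minus DMSO, for 11448 genes tested in both lines (grey) and the 36 members (purple, filled where the response differed between lines), with 116 genes beyond the axes and a dotted line of equal response. GABARAPL1 and SQSTM1 lie above the line in the upper right, OPTN and ULK1 near it, CALCOCO2 in the upper left and ATG10 at the bottom.

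With DMSO the lines themselves differed in 26 of 36 genes (72.2%), beside 75.9% of the 13249 genes tested, so the share of members was near the background. SW948 was higher in 15 (41.7%, beside 38.2% of all genes) and lower in 11 (30.6%, beside 37.7%). With plain totals it was higher in 21 and lower in 6, beside 46.3% and 29.6% of all genes. With TMM the widest gaps were RB1CC1 (1.58), ATG2A (1.18), PIK3C3 (1.08), TAX1BP1 (1.002) and ATG4C (0.83) on the side of SW948, and NBR1 (-0.65), ATG4A (-0.61), GABARAPL1 (-0.58) and ATG4D (-0.51) on the side of HT55, all as log2 differences. Each is a single cell line, so these gaps describe this pair.

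Levels per length placed the genes on a scale on which they can be compared. SQSTM1 led in all 4 groups, with 173 CPM per kilobase in HT55 with DMSO, 318 with itraconazole, 193 in SW948 with DMSO and 907 with itraconazole. NBR1 came next in control HT55 at 74.0 CPM per kilobase and GABARAP in control SW948 at 111. The lowest 3 were ULK2 (0.796), PIK3C3 (1.49) and ATG4C (2.19) in control HT55, and ULK2 (0.641), ATG2B (1.74) and ATG14 (2.19) in control SW948. GABARAPL1 went from 12.5 to 47.5 CPM per kilobase in HT55 and from 8.38 to 80.5 in SW948, and ATG10 from 2.24 to 0.339 in SW948. The levels use 1 main transcript per gene, and the share of other transcripts was not measured.

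**Figure D5:**
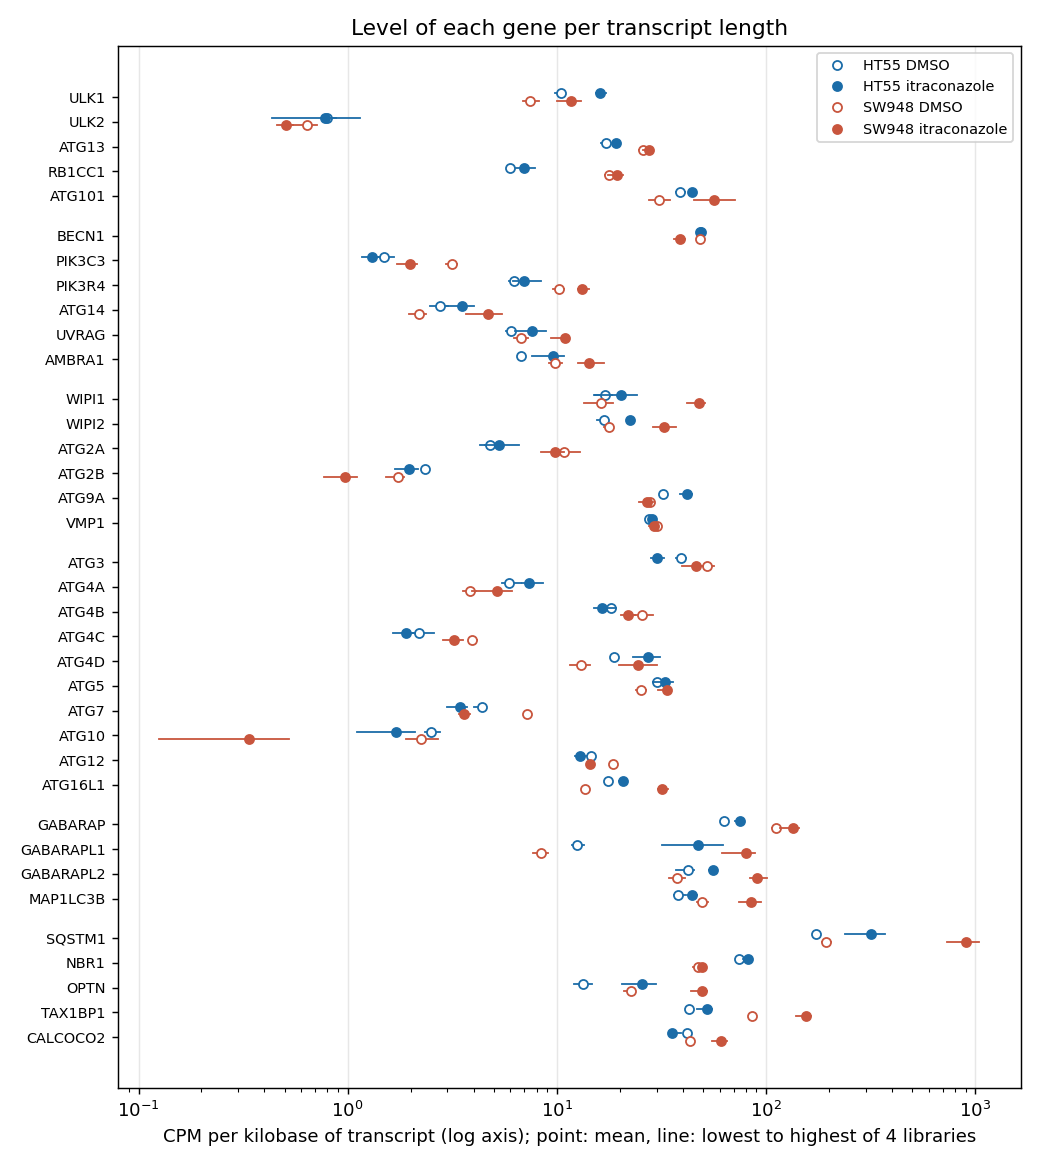
Level of each gene in CPM per kilobase of its main transcript (horizontal log axis), blue for HT55 and red for SW948, open for DMSO and filled for itraconazole, with a line from the lowest to the highest of 4 libraries. SQSTM1 is the most abundant of the 36 in all groups, from 173 to 907 CPM per kilobase, and ULK2 or ATG10 the least.

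A wider list of 41 autophagy genes outside the 36 was read the same way. It held factors that raise autophagy genes, paralogs, fusion factors and further receptors, of which 39 matched an ID and 35 were tested in HT55 and 33 in SW948. Of those tested in HT55, 15 were called up (42.9%, beside 27.5% of all genes) and 4 down (11.4%, beside 26.5%). In SW948, 18 were called up (54.5%, beside 38.9%) and 9 down (27.3%, beside 41.3%). The median log2 fold changes were 0.15 in HT55 and 0.20 in SW948. With plain totals 12 rose and 9 fell in HT55, beside 18.8% and 38.8% of all genes, and 12 rose and 16 fell in SW948, beside 25.2% and 54.6%. The medians of the wider list then turned to -0.01 and -0.13, where those of all genes were -0.18 and -0.35. Of the 4 transcription factors, 1 was called up in HT55, and 3 up and 1 down in SW948. FOXO3 rose in both lines (0.63 and 1.49) and TFE3 in SW948 (1.08, adjusted p = 3.24e-07), where MITF fell by 1.16 from 13 to 21 counts per control library to 4 to 7. The ATG8-binding coactivator TP53INP2 rose by 0.71 in HT55, where treated and control libraries overlapped, and by 2.44 in SW948. Its relative TP53INP1 rose by 1.43 in HT55 and fell by 0.26 in SW948, a difference of -1.66 (adjusted p = 4.01e-05).

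The endoplasmic reticulum receptor RETREG1, also of the wider list, rose in HT55 from 15.7 ± 2.54 to 38.1 ± 7.44 CPM (1.27 ± 0.16) and fell in SW948 from 27.9 ± 1.24 to 10.5 ± 3.56 CPM (-1.43 ± 0.17), a difference of -2.67 ± 0.26 (adjusted p = 1.23e-07). The mitophagy kinase PINK1 rose in both (1.33 and 0.81), as did the glycogen receptor STBD1 (1.25 and 2.23), which had 4 to 49 counts per library. ATG16L2, a paralog of ATG16L1 without a known part in canonical autophagy, fell in both (-1.23 and -0.88), from 27 to 54 counts per control library and 11 to 29 per treated library. With TMM its treated and control libraries overlapped in SW948. In SW948 the WIPI relative WDR45 fell by 1.46, the fusion factor TECPR1 by 1.37, and NRBF2, a subunit of the lipid kinase complex, rose by 1.08, and none of these 3 was called in HT55. MAP1LC3B2, MAP1LC3C, GABARAPL3 and ATG9B had too few counts to be tested in either line, and MAP1LC3A and BNIP3 too few in SW948, where BNIP3 had 0 counts in all 8 libraries.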

How the data were processed

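RNA was measured in 16 libraries of HT55 and SW948 with the TruSeq kit and single-end reads of 50 bases. Per the labels, reads were aligned to hg19, and TopHat, HTSeq and DESeq are named without versions. The annotation release is not given in the sources used here. The counts were deposited by the authors as raw reads per Ensembl gene, and reads with more than 1 alignment are set apart in a total of their own (21.99 to 27.9% over libraries). Genes with near copies are therefore undercounted.

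The counts were tested by quasi-likelihood in edgeR (version 4.0.16, under R 4.3.3) with TMM scaling and filterByExpr, on the 8 libraries of each line, and on all 16 for the line by treatment interaction and for the DMSO groups. Adjusted p is Benjamini-Hochberg over all genes tested, called under 0.05. Standard errors were derived from each fold change with its F value. CPM used TMM factors of the 16 libraries, and lengths are those of MANE Select transcripts. On simulated counts, 74% of HT55 changes of 0.5 and 100% of changes of 1 on the log2 scale were recovered (11957 genes), and 85% and 100% in SW948 (12281 genes). In each line 13 unchanged genes were called. The simulation used the control profile for both groups, a fixed dispersion of 0.01 and 200 changed genes with higher counts. In the data many more genes changed and treated libraries spread more than controls, so these shares are not the power of the tests here. Reads carry no molecular identifiers. Alternatives were plain totals, DESeq2 1.42.0 (size factors, Wald test), other filters, a replicate block, leaving out each library, a fit on all 16 and a threshold of 0.01.

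The members and lists were chosen with earlier results of these data known. Values of every library are given for the 4 members with the largest called, non-overlapping change in each line, members called in opposite directions, the ATG8 family and SQSTM1. Genes of the wider list are named where called with an absolute log2 fold change of 1 or more in either line. Other genes named with values are said to be chosen after their values were seen. The cyclic AMP response element was searched after the GABARAPL1 promoter had been read.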

Additional observations from a re-analysis of the deposited data

Results flagged for a closer look

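Among 192 groups of 4 libraries over members and named genes, 8 held a library far from the other 3 by Dixon's limit, where chance gives about 1 in 20 groups, or 9.6 here. They were UVRAG in HT55 with DMSO (replicate 3 lowest, 29.2 CPM) and in SW948 with itraconazole (replicate 1 lowest, 48.2 CPM), ATG4A in HT55 with itraconazole (replicate 4 highest, 18.9 CPM), and ATG16L1 in the same group (replicate 3 lowest, 65.6 CPM). The others were MAP1LC3B in HT55 with DMSO (replicate 4 highest, 88.9 CPM), CALCOCO2 in HT55 with itraconazole (replicate 2 highest, 142 CPM), MITF in the same group (replicate 3 highest, 4.47 CPM) and TP53INP2 in HT55 with DMSO (replicate 3 highest, 12.2 CPM).

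The response differed between the lines by the interaction test of edgeR (adjusted p under 0.05) for 19 members. On the log2 scale, SW948 minus HT55, it was more positive for ATG101 (0.68), ATG14 (0.75), UVRAG (0.35), WIPI1 (1.31), WIPI2 (0.46), ATG5 (0.30), ATG16L1 (0.99), GABARAPL1 (1.35), GABARAPL2 (0.87), MAP1LC3B (0.55), SQSTM1 (1.36), TAX1BP1 (0.57) and CALCOCO2 (0.72). It was more negative for BECN1 (-0.34), PIK3C3 (-0.48), ATG2B (-0.57), ATG9A (-0.42), ATG7 (-0.65) and ATG10 (-2.12). Of the named genes outside the list, it differed for TFE3 (0.97), FOXO3 (0.89), NRBF2 (0.94), STBD1 (1.01), TP53INP2 (1.76), WDR45 (-1.17), TECPR1 (-1.05), RETREG1 (-2.67) and TP53INP1 (-1.66).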

How the results depend on the processing

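Plain library totals gave 9 risen members in HT55 and 16 fallen in SW948, with a median log2 fold change of 0.0306 in HT55 and 0.0263 in SW948. On that scale the sign turned in HT55 for ATG13 (-0.0041), BECN1 (-0.15), PIK3R4 (-0.0113), ATG2A (-0.0222), VMP1 (-0.12), ATG5 (-0.05), NBR1 (-0.0279), TFE3 (-0.0285) and NRBF2 (-0.0015), and in SW948 for ATG13 (-0.27), RB1CC1 (-0.24), GABARAP (-0.0894) and NBR1 (-0.29). NBR1 in SW948 also turned to -0.0016 with 10 counts required in every library, where ATG10 was not tested. ULK2 in HT55, not called, ranged from -0.2951 to 0.1719 over the fits that left out 1 library, above 0 without control replicate 2 (0.0096) or treated replicate 3. A threshold of 0.01 left 14 of 36 members changed in HT55, beside 4566 of 12133 genes. Leaving out 1 library gave 18 to 29 changed, 15 to 22 risen and 3 to 7 fallen members in HT55 with a median of 0.19 to 0.23, the 3 without any 1 control or without treated replicate 4. In SW948 it gave 27 to 31 changed, 19 to 20 risen and 8 to 11 fallen with a median of 0.30 to 0.41, for the interaction 18 to 22 members and for the DMSO groups 25 to 27. Over the same fits the genes called ran from 5560 of 12269 to 7910 of 12263 in HT55. They ran from 9686 of 12628 to 10294 of 12670 in SW948. For the interaction they ran from 6762 of 13448 to 7451 of 13459, and for the DMSO groups from 9778 of 13417 to 10507 of 13429. The cause of these shifts was not tested.

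Same-numbered treated and control libraries had correlations of deviations from -0.045 to 0.145 in HT55 and from 0.002 to 0.135 in SW948. In both lines the highest value of any pair was that of control replicate 3 with treated replicate 3. Such small correlations over many genes cannot show whether same-numbered libraries shared a batch. With the replicate block 19 of 36 members changed in HT55 (15 up, 4 down), beside 6300 of 12133 genes. In SW948 31 changed (20 up, 11 down), beside 9973 of 12505 genes. The block left 19 members called in the interaction, beside 7036 of 13249 genes, and 26 between the DMSO groups, beside 10075 of 13249. Depth limits ATG10, STBD1, MITF and ATG16L2, which had under 20 counts in some libraries.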
